A study of Mus musculus with 20 samples.

Results

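The 42 genes described here encode the machinery that releases synaptic vesicles. They were chosen from a list of exocytosis and synaptic vesicle genes, with earlier results of these data known. They were matched by Ensembl identifier, and all 42 were found among the 37620 genes listed for these libraries. They fall into 12 synaptotagmins, 8 SNARE proteins, 5 proteins that clamp or take apart SNARE complexes, 8 vesicle proteins, 3 Rab3 GTPases and 6 active zone or priming proteins. All 42 had a value in each of the 20 libraries, and 39 passed the filter on low values and were tested.

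RNA was sequenced from Trpv1 neurons sorted from mouse dorsal root ganglia (DRG), to ask how sensory neurons of the lumbar level (L4-5) differ from those of the sacral level (L6-S1), whose ganglia hold the neurons of the pelvic organs. Trpv1 is the heat- and capsaicin-gated channel of nociceptors. There were 4 groups of 5 libraries, male lumbar, male sacral, female lumbar and female sacral, and each of the 10 donors (5 male, 5 female) gave a lumbar and a sacral library. All animals, 6 to 8 weeks old, were homozygous for the Trpv1tm2Bbm allele, in which the Trpv1 locus drives alkaline phosphatase and nuclear β-galactosidase. The cells were therefore chosen by activity of the reporter from that locus, through the fluorescent product of a galactosidase substrate, and the brightest were collected. No library came from animals without the allele. Each donor label carries a pair of animal numbers although the methods count mice singly, so a donor may be a pool of animals. Read counts here and below were worked back from the deposited values. Between 44044356 and 66679072 such reads fell on genes in each library, over genes whose counts came out whole.

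Transmitter release is a sequence of steps. Vesicles filled and marked by proteins such as synaptophysin, SV2 and the synapsins are held near the membrane by Rab3 and the active zone scaffold, primed by Munc13, and fused when vesicle and membrane SNAREs zip together after calcium binds synaptotagmin. Complexin clamps the assembled SNAREs, and NSF with its SNAP adaptors takes them apart for reuse. In DRG neurons the proteins are made in the cell body and carried to the terminals in the spinal cord and in the periphery, where nociceptors also release peptides from dense-core vesicles.

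On the deposited scale most of the release machinery was higher at the sacral level. Of 39 genes tested, 35 were higher in sacral and 2, Stx3 and Syn3, were higher in lumbar libraries, at an adjusted p of at most 0.05 (limma, Benjamini-Hochberg over all tested genes), while Syt3 and Unc13b were not called. Over all 16304 genes tested, 30.3% were called higher in sacral and 15.3% higher in lumbar, 45.6% in all. The list was chosen with earlier results known, so setting these shares beside it is a description and not a test. The median difference, sacral minus lumbar, was 0.56 log2 units over the 39 genes and 0.11 over all genes tested. Relative to 8 other neuronal genes the median difference of the 39 was 0.26, with 25 genes higher and 2 lower in sacral libraries. The shares over all genes were then 10% and 34.1%. Relative to 7 of these 8, a choice made after seeing the data, the median was 0.01, with 10 genes higher and 6 lower. The shares were then 2.8% and 62.5%, as set out below with the markers. In bulk samples, fewer cells of a type and less RNA per cell cannot be told apart. The p-values rest on the spread among the libraries of these donors, with donor as a random block and variances moderated over all genes.

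The direction was shared by most donors. Of the 42 genes, 24 were higher in the sacral library of all 10 donors, against 14.6% of the 15318 genes with a value in every library, and both genes called higher in lumbar were lower in the sacral library of all 10 donors, against 6.55%. The lowest sacral library lay above the highest lumbar library for 4 genes, Rab3b, Syn2, Syp and Rab3c, where 1.34% of genes were separated in this way. No release gene was separated with lumbar on top, where the share over all genes was 0.372%. By donor, the median difference of the 39 genes ran from 0.26 log2 units in female donor 2 to 0.92 in male donor 5, and 31 to 37 of the 39 were higher in the sacral library.

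**Figure D1:**
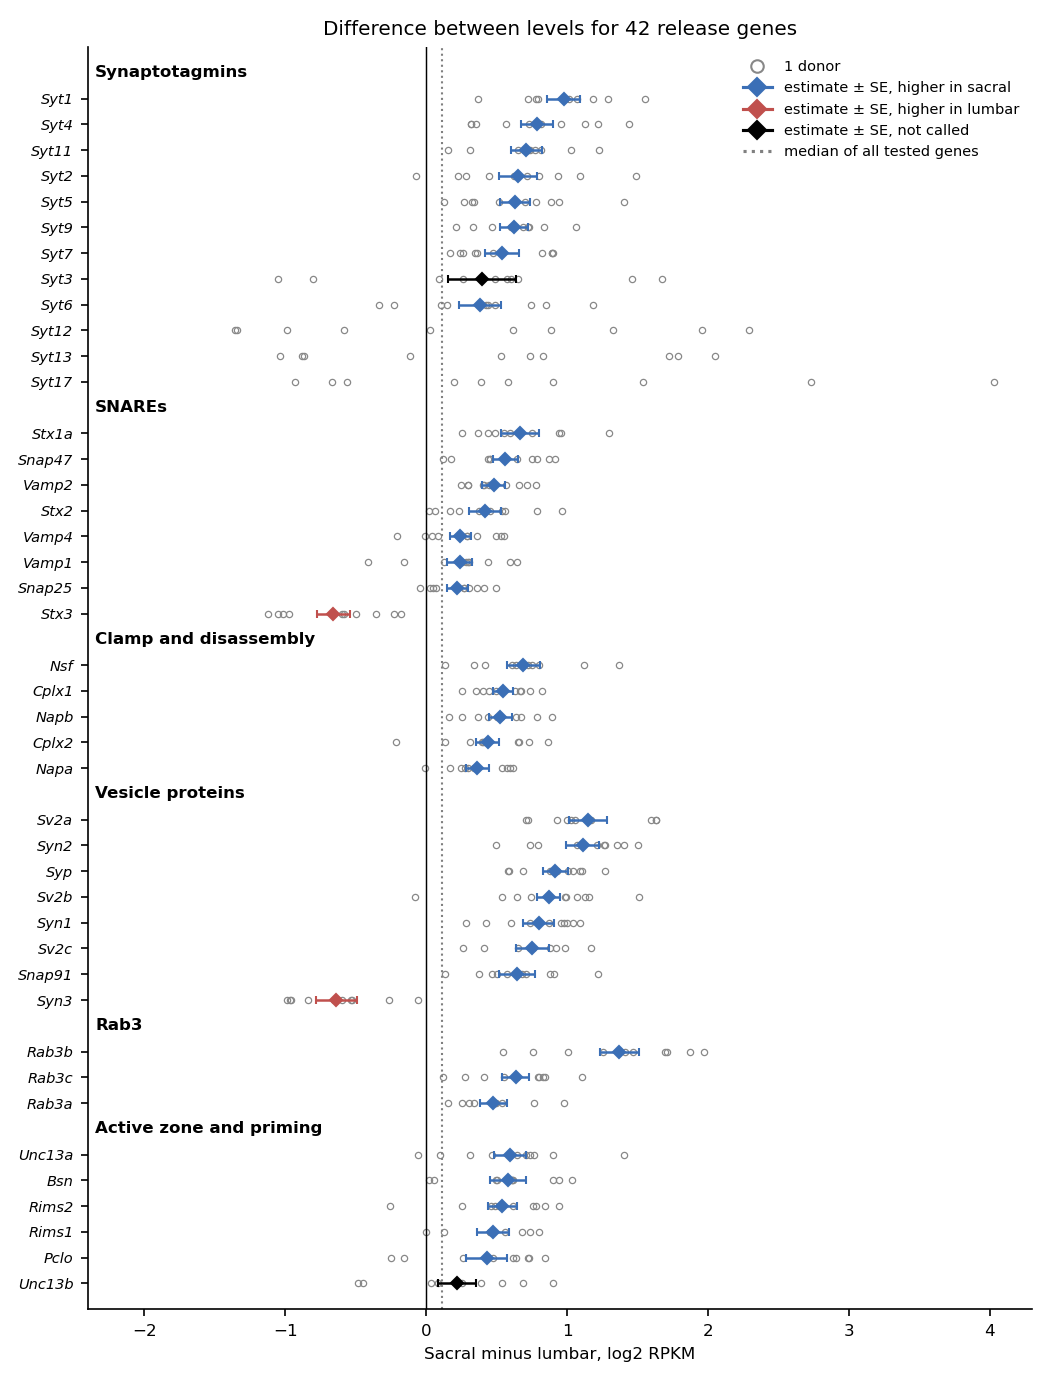
Sacral minus lumbar difference in log2 RPKM for the 42 genes, ordered by protein class. Open circles are the 10 donors, diamonds the limma estimates with their SE for the 39 genes tested, and the dotted line the median of all genes tested (0.11). Only Stx3 and Syn3 lie on the lumbar side on this deposited scale. Beyond these 2, centring on 8 neuronal markers places 4 estimates below 0, and centring on 7, chosen after seeing the data, places 17.

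The libraries were checked against markers of the cells the sort could hold. For all counts of markers called, the shares over all genes were 30.3% higher in sacral and 15.3% higher in lumbar. Of the 5 genes listed for the sorted population, Calca, which encodes CGRP, lay between 9.44 and 10.36 log2 RPKM in all libraries, and Trpv1 itself lay between 3.14 and 4.71 in lumbar and between 4.10 and 5.14 in sacral libraries. Trpv1 was 0.96 ± 0.15 (SE) higher in sacral (adjusted p = 3.59e-05), and Calca differed by -0.16 ± 0.09 (adjusted p = 0.16). Of the 5 genes, 3 were called higher in sacral and 2 were not called. Their mean was higher in the sacral library of 10 of 10 donors, by 0.50 ± 0.25 (SD) log2 units. Genes of large myelinated neurons were low, with summed levels of 5.04 to 9.58 RPKM in lumbar and 4.36 to 8.99 in sacral libraries. Of 5 such genes 3 were tested, and 1 was called lower in sacral and 2 were not called. The proprioceptor calcium buffer Pvalb had a lumbar median of 0.04 log2 RPKM and was at most -0.27 in sacral libraries.

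Glial RNA was present at both levels and moved against the release genes. The mean of the 10 glial genes had a lumbar range of 5.70 to 6.82 log2 RPKM (median 6.34) and a sacral range of 4.76 to 6.01 (median 5.30). It was lower in the sacral library of 10 of 10 donors, by a mean of -0.94 ± 0.25 (SD) log2 units (exact two-sided sign-flip permutation test, p = 0.00195, the smallest that 10 pairs allow). Their summed level was 2014 to 3971 RPKM in lumbar and 1241 to 2086 in sacral libraries. Of the 10 genes, 9 were called lower in sacral, among them Fabp7, a satellite glial lipid carrier, and Sox10, the glial transcription factor, and none was at 0. All 5 endothelial genes were also called lower in sacral, with summed levels of 8.33 to 61.8 RPKM in lumbar and 6.26 to 30.4 in sacral libraries. Of 8 macrophage genes 4 were tested and 2 were called lower in sacral, with summed levels of 3.16 to 16.2 and 1.92 to 4.74 RPKM. Of 5 red cell genes 4 were called lower in sacral, with summed levels of 1.14 to 16.8 and 0.52 to 6.95 RPKM. Their part in the differences of the release genes was not tested, beyond the fit with a glial term given below.

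Neuronal markers moved with the release genes. Of 8 such genes, 7 were called higher in sacral, from Stmn2 (0.42 ± 0.09) to Prph, the peripherin filament of small neurons (0.71 ± 0.12). The eighth, the noncoding RNA Snhg11, went the other way (-1.52 ± 0.27, adjusted p = 0.000144). The summed level of the 8 was 906 to 1626 RPKM in lumbar and 1565 to 1999 in sacral libraries. The mean of all 8 was higher in the sacral library of 10 of 10 donors, by 0.30 ± 0.18 (SD), and without Snhg11 by 0.56 ± 0.26 (exact two-sided sign-flip permutation test, p = 0.00195 for both). The median difference of the release genes was also 0.56.

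**Figure D2:**
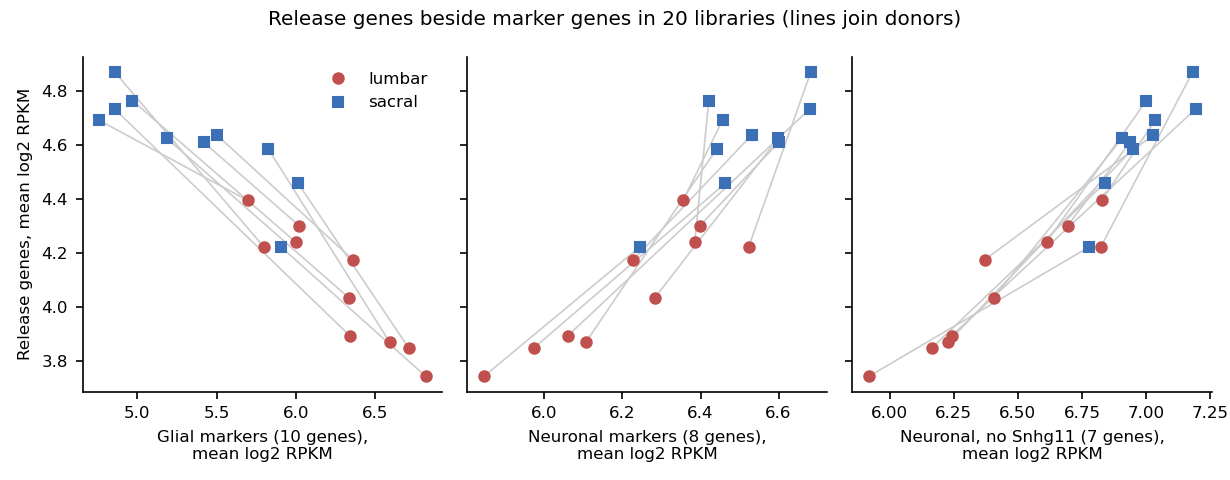
Mean log2 RPKM of the release genes in each library (y axis) against the mean of 10 glial genes, 8 neuronal genes, and 7 neuronal genes without Snhg11 (x axes, log2 RPKM). Lines join the lumbar and sacral library of a donor. Sacral libraries lie at 4.76 to 6.01 on the glial axis and lumbar libraries at 5.70 to 6.82, and the release genes are higher where the 7 neuronal genes are higher.

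The count of genes called therefore depended on what the libraries were scaled to. Scaling by TMM factors left 30 release genes higher in sacral and 2 higher in lumbar, where 21.5% and 21.3% of all genes were called in each direction, and quantile normalization left 31 and 2, where the shares were 23.0% and 18.6%. Centring each library on the 8 neuronal genes left 25 and 2, where the shares were 10% and 34.1%. Voom on the reads worked back from the values left 30 and 2, where the shares were 19.2% and 23.2%. Leaving the donor out of the fit left 33 and 2, where they were 27.1% and 13.2%. Centring on the 7 neuronal genes without Snhg11, a choice made after seeing the data, left 10 higher and 6 lower in sacral, where 2.8% and 62.5% of all genes were called. The median of all genes was then -0.45, and that of the release genes 0.01. The 10 genes that stayed higher in sacral were Rab3b, Sv2a, Syn2, Syt1, Syp, Sv2b, Syn1, Syt4, Sv2c and Syt11, with differences from 0.15 (Syt11) to 0.81 (Rab3b), and 6 of them are vesicle proteins. The 6 lower ones were Stx3, Syn3, Snap25, Vamp1, Vamp4 and Napa, from -1.22 (Stx3) to -0.19 (Napa), and 4 of them are SNAREs. By class the median was 0.28 for vesicle proteins, 0.07 for synaptotagmins, 0.08 for Rab3, -0.03 for clamp and disassembly, -0.05 for active zone and priming and -0.23 for SNAREs.

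With the glial mean of each library as a term in the fit, 3 release genes were called higher in sacral and none in lumbar, where 1.05% and 0.202% of all genes were called. These were Rab3b (1.15 ± 0.24, adjusted p = 0.0215), Sv2b (0.74 ± 0.14, adjusted p = 0.0137) and Syp (0.52 ± 0.12, adjusted p = 0.0281). The median difference of the 39 genes was 0.17, and their median SE was 0.155 against 0.113 without the term. The glial means of the levels overlap only between 5.70 and 6.01 log2 RPKM.

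**Figure D3:**
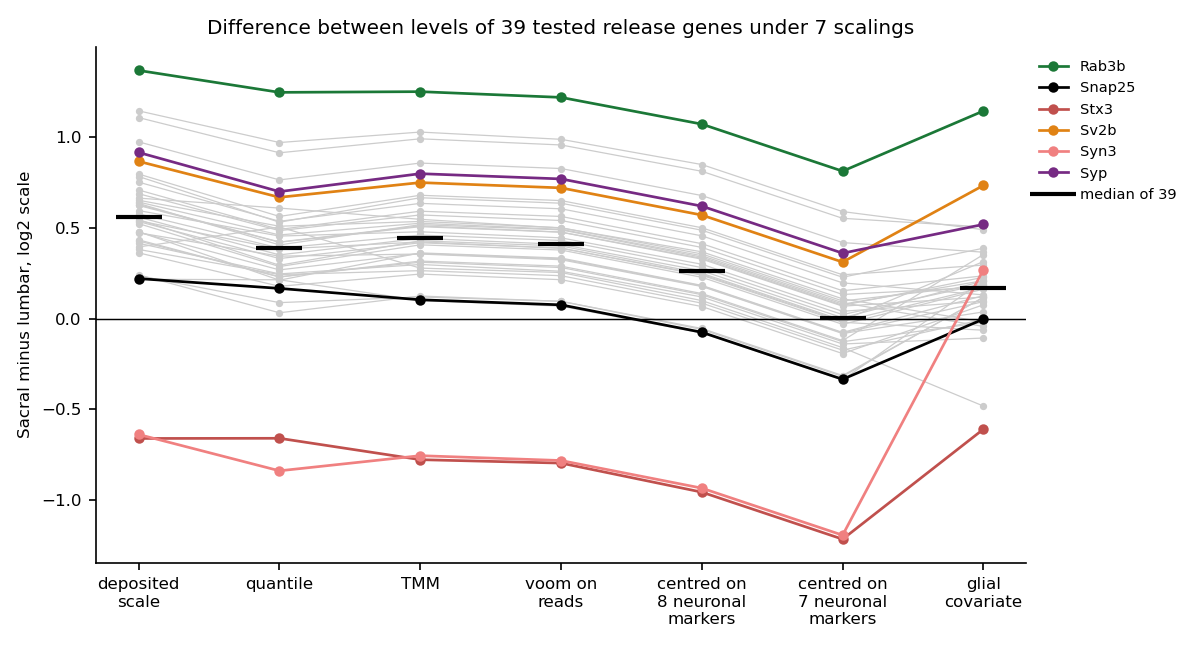
Sacral minus lumbar difference (log2 scale) of each of the 39 tested release genes on the deposited scale and under 6 other scalings or fits, with the median as a bar. Rab3b, Syp and Sv2b stay above 0 throughout and Stx3 stays below 0, whereas Snap25 passes below 0 with neuronal centring and Syn3 rises to 0.27 with the glial term.

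Promoter windows are shown for 4 of the genes. Rab3b had the largest difference and Stx3 the largest in the other direction. Syn1 and Unc13a were the only members whose window held the left arm of the element bound by the neuronal gene repressor REST. Any link between the windows and the differences was not tested. Each window holds 250 bases before and 50 bases after the annotated start (RefSeq, GRCm38.p6, another build than the mm9 of the expression values), and 32 of the 42 genes matched, with 43 windows. Capitals mark matches on either strand to 4 motifs. The REST arm was searched as TTCAGCACC and the cyclic AMP response element as TGACGTCA. The GC box, where Sp factors bind, was searched as GGGCGG. For the TATA box, an element found near many strong promoters, the letters were TATAAA. Each window is printed on the strand of its gene, which is plus for Rab3b and minus for the others.
Rab3b, chr4:108878820-108879119: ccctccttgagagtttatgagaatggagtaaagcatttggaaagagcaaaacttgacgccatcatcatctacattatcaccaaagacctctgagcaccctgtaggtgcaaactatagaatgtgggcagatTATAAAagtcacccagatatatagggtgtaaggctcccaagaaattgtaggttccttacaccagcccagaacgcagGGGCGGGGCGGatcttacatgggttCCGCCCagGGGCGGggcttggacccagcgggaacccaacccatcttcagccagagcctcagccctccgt
Stx3, chr19:11819354-11819653: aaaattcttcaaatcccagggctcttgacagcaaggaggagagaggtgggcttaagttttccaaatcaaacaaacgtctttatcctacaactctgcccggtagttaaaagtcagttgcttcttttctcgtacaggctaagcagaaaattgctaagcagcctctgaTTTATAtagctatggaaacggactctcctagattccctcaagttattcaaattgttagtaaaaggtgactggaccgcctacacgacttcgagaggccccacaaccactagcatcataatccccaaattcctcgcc
Syn1, chrX:20920869-20921168: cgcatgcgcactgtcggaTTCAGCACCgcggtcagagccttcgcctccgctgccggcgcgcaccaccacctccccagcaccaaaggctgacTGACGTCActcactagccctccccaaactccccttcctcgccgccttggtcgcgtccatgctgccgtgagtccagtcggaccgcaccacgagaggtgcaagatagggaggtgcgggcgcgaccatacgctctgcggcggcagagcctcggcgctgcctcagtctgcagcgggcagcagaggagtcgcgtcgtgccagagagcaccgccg
Unc13a, chr8:71671708-71672007: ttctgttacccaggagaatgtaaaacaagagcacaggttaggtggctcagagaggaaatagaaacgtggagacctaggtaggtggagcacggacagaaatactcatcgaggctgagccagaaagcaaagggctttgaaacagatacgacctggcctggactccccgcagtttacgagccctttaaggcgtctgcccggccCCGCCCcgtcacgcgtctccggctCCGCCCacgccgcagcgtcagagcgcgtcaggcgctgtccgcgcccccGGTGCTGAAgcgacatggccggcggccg
The REST arm was found in 2 of the 43 windows and in 0.371% of all 32851 windows. The cyclic AMP element was in 2 (Syn1 and Napa) and in 1.79% of all. The GC box was in 28 windows (65.1%) and in 35.7% of all, and the TATA box in 5 windows (11.6%) and in 13.6% of all. Rab3b held 4 GC boxes, 2 of which share 1 base, and Stx3 held a TATA box on the other strand 85 bases before its start. A match describes letters in the window and is not a site of binding.

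Synaptotagmins are the calcium sensors of exocytosis, and 8 of the 9 tested were higher in sacral, with a median difference of 0.63. The shares over all genes were 30.3% higher in sacral and 15.3% higher in lumbar, also for the counts of each class below. Syt1, the fast sensor of synchronous release, had lumbar libraries from 3.95 to 5.19 log2 RPKM (median 4.48) and sacral libraries from 5.02 to 5.74 (median 5.46). The groups overlapped by the top of the lumbar range only. The difference was 0.98 ± 0.12 (SE), or 1.97-fold, and was shared by 10 of 10 donors (adjusted p = 3.33e-06). Syt2, another fast sensor, was lower in level, at medians of 2.41 and 3.17, and differed by 0.65 ± 0.14 (adjusted p = 0.000621, 9 of 10 donors).

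The highest synaptotagmin levels were not those of the fast sensors. Syt11, which does not bind calcium, had medians of 6.56 and 7.40 log2 RPKM, and Syt4, found on dense-core vesicles, 6.20 and 7.05. They were higher in sacral by 0.71 ± 0.11 (adjusted p = 4.19e-05) and 0.78 ± 0.12 (adjusted p = 2.49e-05), in 10 of 10 donors each. Part of Syt4 cannot be assigned, because 14.7% of its exon bases are shared with Gm16871 on the opposite strand and the kit does not mark strand. Smaller parts of Syt6 (8.7%, with Atg4a-ps) and Syt7 (5.5%, with Gm17289) are shared in the same way. Syt5, Syt9 and Syt7, the last a slow, high-affinity sensor, were higher in sacral by 0.63, 0.63 and 0.54 in 10 of 10 donors each, from lumbar medians of 4.88, 4.61 and 4.68.

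Syt6 had the smallest difference called in the class. Its lumbar libraries lay at 2.04 to 2.92 (median 2.56) and its sacral libraries at 1.70 to 3.38 (median 3.16), so that the sacral range held the lumbar range. The difference was 0.38 ± 0.15 (adjusted p = 0.0405, 8 of 10 donors), and the call was lost on leaving out any 1 of 7 donors (adjusted p = 0.0554 to 0.138) and under TMM scaling (0.27). Syt3 lay near 1 RPKM, with lumbar libraries from -1.68 to 0.43 and sacral libraries from -1.43 to 1.03, and differed by 0.40 ± 0.24 (adjusted p = 0.182). Syt12, Syt13 and Syt17 were below the filter, with 3 to 203 reads per library. Without the filter they differed by 0.28 ± 0.36, 0.47 ± 0.35 and 0.82 ± 0.48 (adjusted p = 0.592, 0.322 and 0.201), which was not detectable as a difference at this depth.

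**Figure D4:**
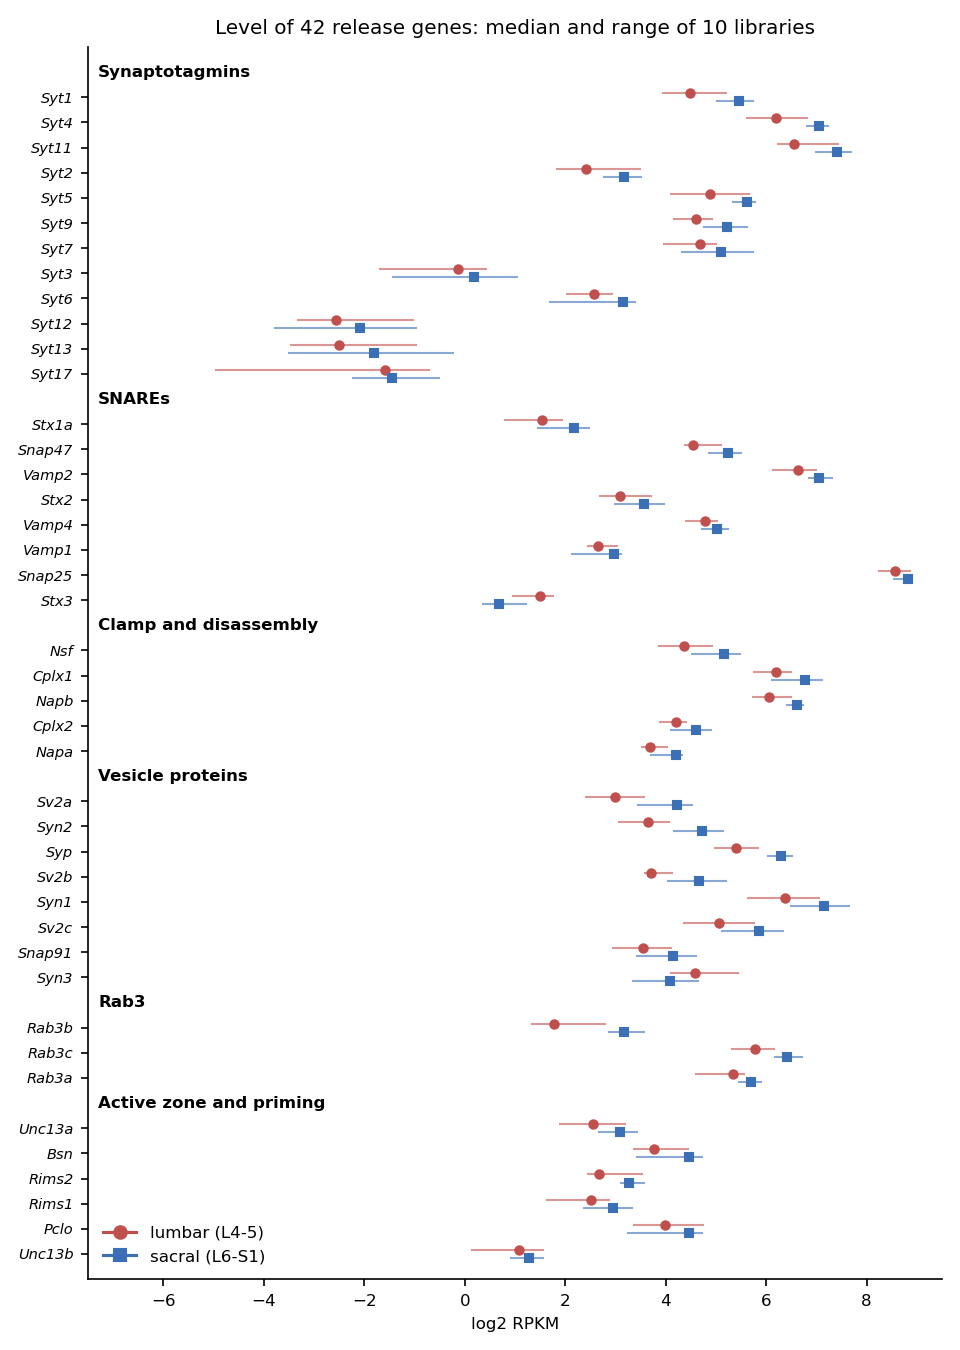
Level in log2 RPKM of the 42 genes in lumbar (circles) and sacral (squares) libraries, with points at the median and lines over the range of 10 libraries. Snap25 is the highest (medians 8.56 and 8.82), and Syt12, Syt13 and Syt17 are the lowest.

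SNARE proteins, which drive fusion, had the smallest class median, a difference of 0.33, with 7 of 8 higher and 1 lower in sacral on the deposited scale. Snap25 (chr2:136539189-136608164 in mm9), the membrane SNARE of neurons, had the highest level of all 42 genes, with 86325 to 210981 reads per library. It lay between 8.25 and 8.87 log2 RPKM in lumbar (median 8.56) and between 8.55 and 8.90 in sacral libraries (median 8.82). The ranges overlapped over most of their length, and the difference, 0.22 ± 0.08 or 1.17-fold, was the smallest called (adjusted p = 0.022, 9 of 10 donors). The call was lost on leaving out any 1 of 3 donors (adjusted p = 0.0549 to 0.0663, limma), under TMM scaling (0.10, adjusted p = 0.227) and with voom (0.08, adjusted p = 0.34). It became -0.07 with centring on 8 neuronal genes (adjusted p = 0.317) and -0.33 with 7, where it was called lower in sacral.

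Stx1a, the plasma membrane syntaxin of synapses, had the largest difference of the class. Its lumbar libraries lay at 0.80 to 1.94 (median 1.54) and its sacral libraries at 1.46 to 2.48 (median 2.18), a difference of 0.67 ± 0.13 (adjusted p = 0.000461, 10 of 10 donors). Vamp2, the synaptic vesicle SNARE, was the second most abundant of the class, at medians of 6.64 and 7.06, and was higher by 0.48 ± 0.08 (adjusted p = 0.000106, 10 of 10 donors). Its paralog Vamp1 had medians of 2.65 and 2.97 and differed by 0.24 ± 0.09 (adjusted p = 0.0374, 8 of 10 donors), a call that was lost on leaving out any 1 of 6 donors and under TMM scaling (0.12). Vamp4, which serves endosomal and slow fusion, differed by 0.24 ± 0.08 (adjusted p = 0.0131), a call lost under TMM scaling (0.13, adjusted p = 0.169), with voom (0.10, adjusted p = 0.283) and under quantile normalization (0.03, adjusted p = 0.72). Stx2 differed by 0.42 ± 0.11 (adjusted p = 0.00562) and Snap47 by 0.56 ± 0.09 (adjusted p = 5.76e-05), and 11.6% of the exon bases of Snap47 are shared with Jmjd4 on the other strand.

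Stx3 (chr19:11849609-11893893, minus strand), a syntaxin of apical membranes and ribbon synapses, went the other way. It lay between 0.95 and 1.76 log2 RPKM in lumbar (median 1.496) and between 0.37 and 1.23 in sacral libraries (median 0.68), with 370 to 740 reads. The difference was -0.66 ± 0.12, or 1.58-fold higher in lumbar, and was shared by 10 of 10 donors (adjusted p = 0.000157). It was negative under every alternative run, from -1.22 to -0.45, and was not called with the glial term (-0.61, adjusted p = 0.207).

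All 5 proteins that clamp or take apart SNARE complexes were higher in sacral, with a median difference of 0.52. Nsf, the ATPase that separates used complexes, had lumbar libraries from 3.86 to 4.92 (median 4.37) and sacral libraries from 4.52 to 5.48 (median 5.15), and differed by 0.69 ± 0.12 (adjusted p = 8.74e-05, 10 of 10 donors). Its adaptors Napb, the neuronal β-SNAP, and Napa, the general α-SNAP, differed by 0.52 ± 0.08 (adjusted p = 4.46e-05) and 0.36 ± 0.08 (adjusted p = 0.00115). Napa had the smallest difference of the class, with lumbar libraries from 3.53 to 4.03 and sacral libraries from 3.70 to 4.33, 9 of 10 donors being higher in sacral. Cplx1, a complexin that clamps and then helps fusion, was the most abundant of the 5, at medians of 6.20 and 6.76, and differed by 0.55 ± 0.07 (adjusted p = 9.19e-06). Cplx2, its paralog, differed by 0.44 ± 0.08 from a lower lumbar median of 4.20 (adjusted p = 0.000188). With centring on 7 neuronal genes all but Nsf (0.13) were below 0.

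Vesicle proteins had the largest class median, a difference of 0.83, with 7 of 8 higher and 1 lower in sacral. Sv2a, a glycoprotein of all synaptic vesicles, had lumbar libraries from 2.41 to 3.57 log2 RPKM (median 3.0) and sacral libraries from 3.45 to 4.53 (median 4.22). The difference was 1.15 ± 0.13, or 2.21-fold, in 10 of 10 donors (adjusted p = 3e-06). Its paralogs Sv2b and Sv2c were higher by 0.87 ± 0.08 (adjusted p = 3.94e-07, 9 of 10 donors) and 0.75 ± 0.11 (adjusted p = 3.57e-05, 10 of 10). On this length-scaled level Sv2c was the highest of the 3 in lumbar and in sacral libraries, with medians of 5.06 and 5.85.

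The synapsins, which tie vesicles to actin in the reserve pool, did not move together. Syn2 had lumbar libraries from 3.08 to 4.06 (median 3.64) and sacral libraries from 4.17 to 5.13 (median 4.72), with no overlap, and was higher in sacral by 1.11 ± 0.12, or 2.16-fold (adjusted p = 8.74e-07). Syn1 was more abundant, at medians of 6.38 and 7.16, and was higher by 0.80 ± 0.11 (adjusted p = 1.27e-05), with overlapping groups but all 10 donors in that direction.

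Syn3 (chr10:85517870-85961641, minus strand), the third synapsin, was lower in the sacral library of all 10 donors. Its lumbar libraries lay at 4.10 to 5.44 (median 4.59) and its sacral libraries at 3.36 to 4.63 (median 4.08), a difference of -0.64 ± 0.15 (adjusted p = 0.00145). However, 14.1% of its exon bases are shared with Timp3, a metalloproteinase inhibitor encoded on the other strand within Syn3, whose own level was higher (mean 6.18 log2 RPKM) and whose difference was -0.77 ± 0.15 (adjusted p = 0.000342). Reads of both genes cannot be told apart there without strand, and the value of Syn3 is uncertain. With the glial term the Syn3 difference was 0.27.

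Syp, synaptophysin, a major vesicle membrane protein, lay between 4.99 and 5.83 (median 5.40) in lumbar and between 6.03 and 6.52 (median 6.30) in sacral libraries. The groups did not overlap, and the difference was 0.92 ± 0.09, or 1.89-fold (adjusted p = 2.94e-07). Of its exon bases, 16.8% are shared with Gm14703 on the other strand, which differed by 0.91 ± 0.10. How reads in the shared bases were assigned was not tested, so the 2 values may not be independent. Snap91, the clathrin adaptor AP180, had the smallest difference of those higher in sacral, with lumbar libraries from 2.94 to 4.10 and sacral libraries from 3.44 to 4.61 (0.64 ± 0.13, adjusted p = 0.000408, 10 of 10 donors).

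The 3 Rab3 GTPases, which dock vesicles through the RIM scaffold, were all higher in sacral, and Rab3b (chr4:108551668-108615929, plus strand) had the largest difference of the 42 genes. Its lumbar libraries lay at 1.34 to 2.79 log2 RPKM (median 1.77) and its sacral libraries at 2.88 to 3.56 (median 3.17). No libraries overlapped, and only the lumbar library of male donor 3 (2.79) came near the sacral range. The difference was 1.37 ± 0.14, or 2.58-fold, in 10 of 10 donors (adjusted p = 5.82e-07), and lay between 0.81 and 1.47 in all 21 alternatives run, being called in each. Of the Rab3b exon bases, 9.0% are shared with 8030443G20Rik on the other strand, which differed by 1.76 ± 0.33 (adjusted p = 0.000303).

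Rab3c, at medians of 5.78 and 6.41, also did not overlap between levels (lumbar 5.33 to 6.15, sacral 6.17 to 6.71) and differed by 0.64 ± 0.10 (adjusted p = 3.48e-05). Rab3a, the form studied most at central synapses, lay at 4.60 to 5.55 in lumbar and 5.45 to 5.89 in sacral libraries and had the smallest difference of the 3, 0.48 ± 0.09 (adjusted p = 0.000388, 10 of 10 donors). On this length-scaled level Rab3c was the most abundant of the 3 at both levels, and Rab3b the least.

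**Figure D5:**
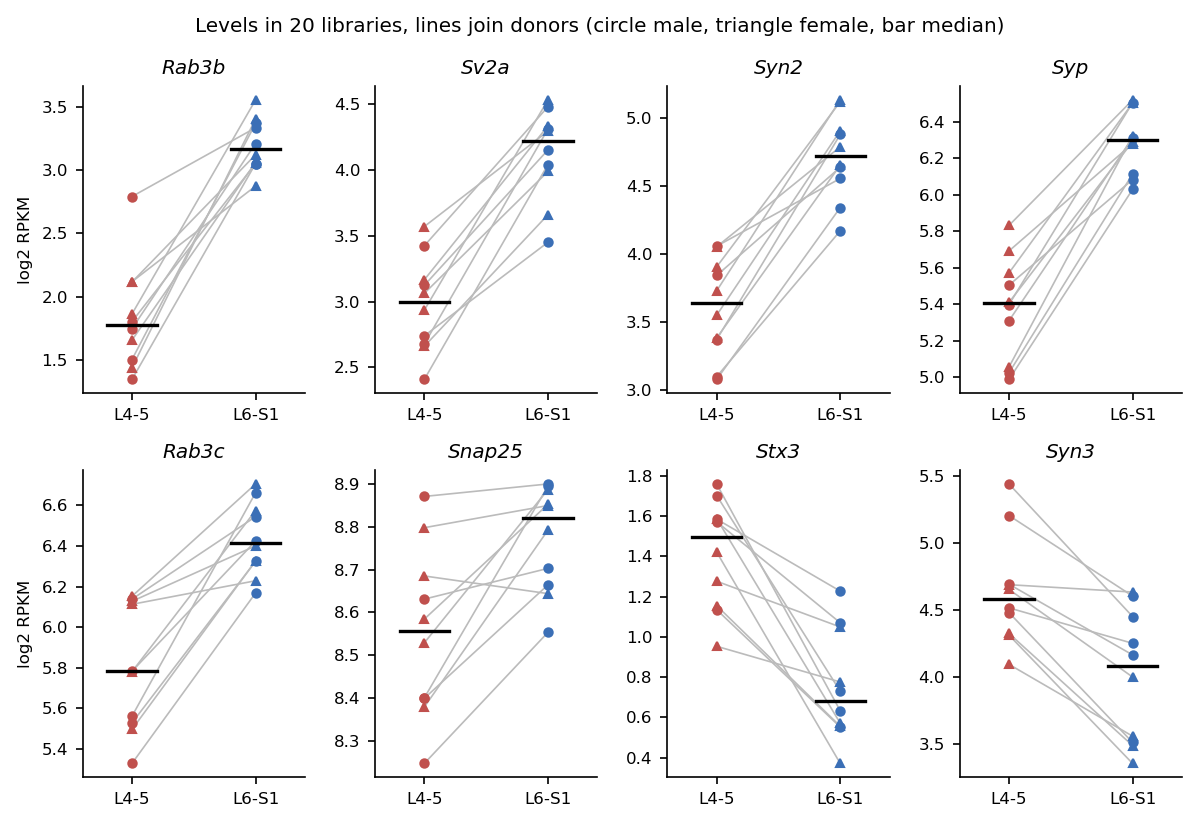
Level in log2 RPKM of 8 release genes in the 20 libraries, with lines joining the lumbar (L4-5) and sacral (L6-S1) library of each donor, circles for males, triangles for females, bars at the medians, and an axis of its own for each gene. Rab3b, Syn2, Syp and Rab3c do not overlap between levels, Snap25 overlaps over most of its range and is called lower in sacral when centred on 7 neuronal markers but not on 8, and Stx3 and Syn3 are lower in sacral in all 10 donors.

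Active zone and priming proteins were higher in sacral in 5 of 6 cases, with a median difference of 0.51. Unc13a, the Munc13 isoform that primes most vesicles, had the largest difference, with lumbar libraries from 1.90 to 3.19 (median 2.56) and sacral libraries from 2.67 to 3.42 (median 3.10). It was higher by 0.60 ± 0.11 (adjusted p = 0.000268, 9 of 10 donors). Its paralog Unc13b lay at 0.14 to 1.57 in lumbar and 0.91 to 1.56 in sacral libraries and differed by 0.22 ± 0.13 (adjusted p = 0.184, 8 of 10 donors). That these paralogs differ from each other was not tested.

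The scaffolds Bsn (bassoon) and Pclo (piccolo) were the most abundant of the class, at lumbar medians of 3.77 and 3.98 and sacral medians of 4.47 each. Bsn differed by 0.58 ± 0.13 (adjusted p = 0.00104, 10 of 10 donors), with 11.4% of its exon bases shared with F630040L22Rik on the other strand. Pclo had the smallest difference called, 0.43 ± 0.15 (adjusted p = 0.0202, 8 of 10 donors), its lowest sacral library lay below the whole lumbar range (3.37 to 4.75) and its highest at 4.73, and the call was lost on leaving out any 1 of 3 donors and under TMM scaling (0.31). The RIM proteins Rims1 and Rims2, which join Rab3 to the channels and to Munc13, differed by 0.47 ± 0.11 (adjusted p = 0.00177) and 0.54 ± 0.10 (adjusted p = 0.000252).

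Other genes of the pathway were read from 5 lists with 92 genes, of which 85 were tested. On the deposited scale 63 were higher in sacral and 8 in lumbar, with a median difference of 0.52. The shares over all genes were 30.3% and 15.3%, also for the counts of each list below. The split was 55 and 13 with TMM scaling, where the shares were 21.5% and 21.3%. It was 43 and 17 with centring on 8 neuronal genes, where they were 10% and 34.1%. With 7 it was 21 and 31, where they were 2.8% and 62.5%.

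Among other SNAREs and the Sec1/Munc18 proteins that guide them, 8 of 18 were higher in sacral and 6 were lower. Stxbp6, amisyn (-0.96 ± 0.25), and Stxbp2, the Munc18 of blood and epithelial cells (-0.95 ± 0.20), had the largest differences among those lower. The other 4 that were lower and the 8 that were higher in sacral are not named here. Differences over the 18 ran up to 0.77, with a median of 0.10. The glial, endothelial, macrophage and red cell genes given above were lower in the same libraries, and their part in these values was not tested.

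Of 21 other sensors, priming and tethering proteins tested, 16 were higher in sacral and 1, Syt15 (-0.89 ± 0.32), was lower. Cadps2, a CAPS protein that primes dense-core vesicles, had a difference of 1.51 ± 0.16 (adjusted p = 1.23e-06) and Syt16 of 1.15 ± 0.14 (adjusted p = 4.65e-06). Of 15 other vesicle membrane proteins 11 were higher in sacral, led by Syngr1, a synaptogyrin (0.93 ± 0.07), and Svop (0.83 ± 0.16), and 1, Sypl, was lower (-0.35 ± 0.09). Of 19 genes of vesicle endocytosis 16 were higher and none was lower, led by the endophilins Sh3gl3 (1.07 ± 0.14) and Sh3gl2 (0.83 ± 0.09).

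All 12 dense-core vesicle genes were higher in sacral, with a median difference of 0.89. Pcsk1, a convertase that cuts peptide precursors, had lumbar libraries from 0.56 to 2.33 and sacral libraries from 3.19 to 3.66 log2 RPKM, without overlap, and differed by 1.74 ± 0.14 (adjusted p = 2.95e-08). Vgf, a granin-like precursor, differed by 1.66 ± 0.20 (adjusted p = 4.47e-06).

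Between the sexes no release gene was called at either level (limma), and none had a level difference that itself differed between the sexes. The lowest adjusted p was 0.245 in lumbar, 0.221 in sacral and 0.908 for the difference of the differences, where 0.0427%, 0.0368% and 0% of all genes were called. At an unadjusted p under 0.05 there were 9, 8 and 4 of the 39 genes, where the shares of all genes were 11.4%, 8.09% and 4.1%. With voom on the recovered reads 1 gene was called in sacral libraries, Cplx1, which was 0.46 ± 0.09 higher in females (adjusted p = 0.0327), against 0.45 ± 0.11 (adjusted p = 0.221) on the deposited values. The sacral difference had the same sign, positive, in males and females for 36 of the 39 genes. Sv2b was higher in sacral by 0.58 in males and by 1.15 in females, but the difference between these, 0.57 ± 0.17, was not called (adjusted p = 0.908).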

How the data were processed

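RNA of sorted Trpv1 neurons was measured in 20 libraries of 10 donors. The authors amplified the RNA with the Ovation RNA-Seq System v2, aligned reads to mm9 with Subread, counted them on Ensembl genes with featureCounts, scaled them with TMM (edgeR) and voom (limma), and deposited log2 RPKM. The median of every library is 0.93, a step the methods do not describe. Differences are therefore relative, and empty cells have no reads. Low values step by whole reads, and for 99.5% of 28233 genes with a value every value came out whole within 0.01 of a read. Depth speaks only for counting error.

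Level and sex were compared with limma 3.58.1 and statmod 1.5.0 (R 4.3.3) from the log2 values as deposited. The model had 4 group means, a random donor block (correlation 0.17) and a trended prior variance, and p-values were adjusted over all tested genes (Benjamini-Hochberg, 0.05). Genes with a mean above -1 in at least 1 group, over at least 3 values, were kept. Differences are sacral minus lumbar or female minus male. The animal numbers in the labels pair the libraries. Deviations from the group means correlated at 0.18 on average within donors and at -0.04 between donors. Marker means were compared with exact sign-flip tests over donors. The test was checked on simulated data. Python 3.11.15 (pandas 2.3.3) made the tables, numpy 2.4.6 ran the exact tests, and matplotlib 3.10.9 drew the plots.

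The members and lists were chosen with earlier results of these data known. All members could be named, in full those with the largest and smallest differences called in each class. Of each pathway list the 2 called genes with the largest difference in each direction were named, except for a few that are not reported here. Of 138 listed genes 137 were matched. Alternatives were other filters, a pseudocount of 1, quantile, TMM and neuronal marker scaling, voom on recovered reads, other donor models, a glial covariate and leaving out each donor. Positions and overlaps came from an annotation of the same build (NCBIM37), and 12 members share exon bases with another gene. The kit does not mark strand.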

Additional observations from a re-analysis of the deposited data

Results flagged for a closer look

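In 10 of 168 groups of 5 libraries (5.95%), 1 library of a release gene lay far from the other 4 (Dixon's test at 95%), where chance alone gives about 1 in 20. Male donor 2 had the lowest sacral value of its group for Vamp1 (2.13 log2 RPKM, others 2.87 to 2.97), Cplx2 (4.10, others 4.55 to 4.61) and Bsn (3.42, others 4.41 to 4.64). Male donor 1 had the highest value for Snap47 in lumbar (5.05, others 4.38 to 4.49), Rims2 in lumbar (3.05, others 2.59 to 2.64) and Unc13b in sacral (1.504, others 0.91 to 1.08). Female donor 5 had the highest sacral value for Syt9 (5.61, others 5.14 to 5.28) and Cplx1 (7.12, others 6.86 to 6.90). In lumbar libraries, female donor 2 was highest for Unc13a (3.19, others 2.52 to 2.68) and female donor 3 lowest for Rims1 (2.25, others 2.78 to 2.88).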

How the results depend on the processing

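The counts of release genes called, 35 higher in sacral and 2 in lumbar, ranged over 31 to 35 and 2 to 2 on leaving out each donor, and were 33 and 2 without the replicate block and 35 and 2 with donor as a fixed block. The block changed only Syt6 and Vamp1, which were not called without it. The pathway counts ranged over 57 to 63 and 7 to 8 without 1 donor, the glial mean over -0.98 to -0.88 and the neuronal mean over 0.26 to 0.33, and no sex call appeared (0 to 0). Pathway genes higher in lumbar numbered 5 with the stricter filter, 13 with TMM and with voom, and 17 with neuronal centring. With TMM, voom and neuronal centring 21.3%, 23.2% and 34.1% of all genes were higher in lumbar. Centring without Snhg11 gave 10 and 6 release genes and 21 and 31 pathway genes. The mean of all neuronal genes, Snhg11 included, was then -0.26, which centring on the others fixes through Snhg11 alone. Over all genes 2.8% and 62.5% were then called. The glial term gave 3 and 0, and 5 and 0. Voom called 1 gene, Cplx1, between the sexes. Directions turned with the glial term for Syt3 (-0.48), Syt6 (-0.0035), Syt7 (-0.063), Stx1a (-0.017), Stx2 (-0.11), Snap25 (-0.0019), Syn3 (0.27), Snap91 (-0.042) and Pclo (-0.020). They turned with neuronal centring for Vamp1 (-0.059), Vamp4 (-0.054), Snap25 (-0.075) and Unc13b (-0.078). Without Snhg11 they turned for Syt3 (-0.16), Syt6 (-0.17), Syt7 (-0.020), Stx2 (-0.14), Vamp1 (-0.32), Vamp2 (-0.075), Vamp4 (-0.31), Snap25 (-0.33), Cplx1 (-0.0088), Cplx2 (-0.12), Napa (-0.19), Napb (-0.031), Rab3a (-0.078), Unc13b (-0.34), Rims1 (-0.082), Rims2 (-0.015) and Pclo (-0.13). The cause of these turns was not tested. Syt12, Syt13 and Syt17 had few reads, and the effect of depth on the calls was not tested.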
